A study of Mus musculus with 46 samples.

Results

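The 42 genes described here encode enzymes and regulators that carry glucose to pyruvate, decide what becomes of pyruvate, or run the pathway back to glucose. They were taken by symbol from a list, and all 42 were found among the 55487 genes of each library. RNA was sequenced in 46 mouse libraries in 3 experiments. The first held pancreatic islets labelled Tfam control (5 female and 3 male libraries) or Tfam KO (4 female and 2 male). The second held islets of the genotypes Clec control (4 libraries on RFD and 6 on HFD) and Clec KO (4 on RFD and 5 on HFD), where Clec stands for Clec16a, with diets given only by those letters and no sex. The third held livers labelled control (6), Mfn DKO (4) or Tfam KO (3), all described with the letters AAV and with no sex. Per the labels, islets spent a night in culture ahead of RNA preparation, whereas livers were flash frozen. No strain, age, Cre driver, promoter or deleted exon is named in the labels, and the cells in which a gene was deleted are therefore not known from them.

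Glycolysis phosphorylates glucose, splits it and oxidises the products to pyruvate, with phosphofructokinase as its chief control point. The PFKFB enzymes make and remove fructose 2,6-bisphosphate, the strongest activator of that step, and the PDK kinases switch off pyruvate dehydrogenase, which admits pyruvate to the mitochondrion's citric acid cycle. In beta cells, glucose entry through Slc2a2 (GLUT2) and the mitochondrial use of pyruvate couple glucose to insulin release. In liver the same intermediates run in both directions, and Pcx, Pck1, Fbp1 and G6pc lead pyruvate back to glucose. Tfam packages and maintains mitochondrial DNA, Mfn1 and Mfn2 fuse mitochondrial outer membranes, and Clec16a takes part in the clearance of mitochondria.

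Library totals ran from 55223041 to 83342809 counts in Tfam islets, from 16235173 to 55810879 in Clec16a islets and from 41961114 to 56894510 in livers. Levels within an experiment are CPM, counts divided by the library's size, with sizes scaled by the trimmed mean of M values (TMM). Tfam lay at 16.0 to 18.9 CPM in Tfam KO islets against 37.8 to 44.7 CPM in their controls, and at 13.1 to 15.9 CPM in Tfam KO livers against 54.1 to 66.2 CPM. In Mfn DKO livers Mfn1 lay at 15.6 to 25.4 CPM against 67.8 to 88.3 CPM in controls, and Mfn2 at 32.3 to 45.1 CPM against 113 to 191 CPM. No drop of Clec16a RNA was measured in Clec KO islets, at 26.5 ± 2.74 CPM on RFD (SD, n = 4) against 24.3 ± 3.71 in controls (SD, n = 4), and 28.1 ± 3.31 on HFD (SD, n = 5) against 26.6 ± 3.60 (SD, n = 6). Reads outside a deleted part would still be counted, so this transcript does not check those labels, and every direction given below for that experiment rests on them. The mean log2(CPM + 1) of 9 beta cell markers was 10.5 to 11.5 in islet libraries and at most 0.0546 in livers. Hepatocyte markers scored 12.92 to 13.004 in control livers and 1.73 to 3.26 in islets. Replicate 4 of Clec16a KO on HFD and replicate 2 of liver Tfam KO stand apart from their groups in the results below, and the calls of both comparisons are given with and without them.

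The promoters of Pck2 and Pfkfb3 are shown. Each gene passed the test in 4 of the 5 comparisons of knockout with control described below. Slc2a2, whose promoter is not printed, did so too, and no other of the 42. Pck2 was called higher in all 4, Slc2a2 lower in all 4, and Pfkfb3 higher in 2 and lower in 2. How many of all genes were called in 4 of the 5 was not counted. Pck2 encodes the mitochondrial form of PEP carboxykinase, and Pfkfb3 the inducible activator of phosphofructokinase. Windows of 250 bases before each start were taken from RefSeq on GRCm38.p6, and 41 of the 42 genes matched at least 1 window. Both strands were searched for TGATGNAA (a composite ATF4 and CEBP element), for ACGTG (the core of the hypoxia response element) and for CACGTG (an E-box, which holds ACGTG on both strands). Matches are in capitals. The single Pck2 window, chr14:55540016-55540265 on the plus strand, has TGATGNAA on the reverse strand, with its first base 103 bases before the start.
Pck2: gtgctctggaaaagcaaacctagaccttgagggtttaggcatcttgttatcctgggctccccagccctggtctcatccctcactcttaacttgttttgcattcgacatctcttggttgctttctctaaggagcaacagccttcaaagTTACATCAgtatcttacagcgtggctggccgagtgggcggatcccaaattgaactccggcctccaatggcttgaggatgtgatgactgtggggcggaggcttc
The first Pfkfb3 window, chr2:11553930-11554179 on the minus strand, has ACGTG with its first base 60 bases before the start.
Pfkfb3 window 1: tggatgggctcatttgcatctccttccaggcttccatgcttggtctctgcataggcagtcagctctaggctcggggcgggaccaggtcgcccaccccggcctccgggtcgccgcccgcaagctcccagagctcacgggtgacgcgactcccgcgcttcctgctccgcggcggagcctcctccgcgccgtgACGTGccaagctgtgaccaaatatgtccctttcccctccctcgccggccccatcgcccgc
The second, chr2:11502091-11502340 on the minus strand, has CACGTG with its first base 53 bases before the start.
Pfkfb3 window 2: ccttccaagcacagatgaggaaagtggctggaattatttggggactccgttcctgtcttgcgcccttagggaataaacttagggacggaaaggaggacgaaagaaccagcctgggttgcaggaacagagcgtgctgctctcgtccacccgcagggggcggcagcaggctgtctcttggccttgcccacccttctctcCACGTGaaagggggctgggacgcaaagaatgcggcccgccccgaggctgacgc
TGATGNAA was found in 2 of the 63 windows of the 42 genes, those of Pck2 and G6pc, and in 3.45% of all 32851 windows of this length. ACGTG was found in 22 of the 63, at 18 genes, and in 16.6% of all windows. CACGTG was found in 8 of the 63 and in 6.02% of all windows. The single window of Slc2a2, not printed, had 0 matches to TGATGNAA, ACGTG and CACGTG. A match describes these letters and is not evidence of binding.

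Control islets and control livers differed in which members of an enzyme family were abundant. Levels between genes are given as TPM, which are scaled by gene length and library total, as the median of 18 control islet libraries against that of 6 control livers. Tissue and experiment are the same split here, so these values describe the libraries and carry no test. Of the 42 genes, 14 lay higher in every islet library than in any liver, 19 lay higher in every liver, and 9 overlapped. Among 18626 genes reaching 1 TPM in a control library, 35.1% lay higher in all islets and 18.9% in all livers.

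At the start of the pathway, the transporter Slc2a2 lay at 286 TPM in islets (range 199 to 421) and 165 TPM in livers (151 to 176), while Slc2a1 (GLUT1) lay at 7.39 and 6.93 TPM, with overlap. The hexokinases Hk1, Hk2 and Hk3 had medians of at most 4.89 TPM in either tissue. Gckr, which encodes a regulatory protein of hepatic glucose phosphorylation, lay at 119 TPM in livers and 0.108 TPM in islets. Khk, which phosphorylates fructose, lay at 877 TPM in livers and 36.6 TPM in islets.

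Isoforms parted at several steps. For the 6-phosphofructo-1-kinases, Pfkm (muscle form) led in islets at 55.3 TPM against 16.0 TPM in livers, and Pfkl (liver form) overlapped at 23.3 and 20.6 TPM. For the bifunctional enzymes, Pfkfb2 lay at 24.1 TPM in islets and 3.51 TPM in livers, and Pfkfb1 at 0.478 TPM in islets and 21.3 TPM in livers. Aldoa led in islets at 308 TPM against 64.1 TPM. Among the enolases, Eno2 and Eno3 had the higher pooled medians in islets, at 32.1 TPM (19.5 to 44.3) and 43.2 TPM (15.4 to 61.3). Eno1 lay at 23.8 TPM in islets (14.6 to 45.5) and led in livers, at 163 TPM. The islet medians pool both islet experiments, in which the levels of Eno1 and Eno3 differed, as given at the end. Pkm, the pyruvate kinase of most tissues, lay at 220 TPM in islets and 12.5 TPM in livers. Pklr, its liver and red cell counterpart, lay at 15.1 TPM in islets and 165 TPM in livers.

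Around pyruvate, Ldha, which makes lactate, lay at 5.23 TPM in islets (3.79 to 11.3) and 507 TPM in livers (462 to 663). The kinase Pdk3 lay at 12.0 TPM in islets and 0.608 TPM in livers, and Pdk1 at 8.41 and 36.9 TPM. Islets held Pck2 at 33.2 TPM (28.3 to 44.2) and Pck1, the cytosolic form, at 0.084 TPM. Livers had the opposite layout, with Pck1 at 2526 TPM and Pck2 at 0.965 TPM (0.775 to 1.47). For the last step, G6pc2 lay at 2734 TPM in islets (990 to 4465) and 0.0218 TPM in livers, and G6pc at 323 TPM in livers (227 to 541) and a median of 0 in islets. Fbp1 lay at 1737 TPM in livers and 10.02 TPM in islets.

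**Figure D1:**
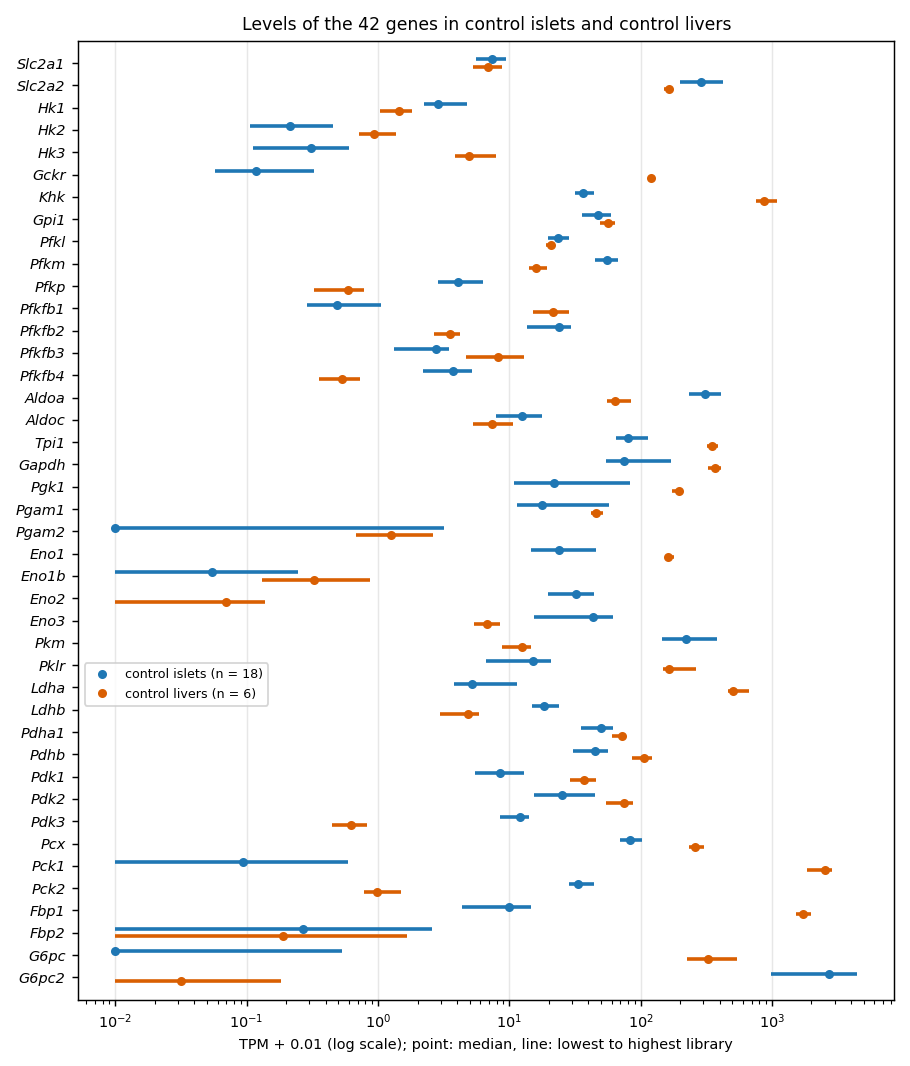
Levels of the 42 genes in control islets (18 libraries, blue) and control livers (6 libraries, orange), as TPM + 0.01 on a log axis. Points are medians and lines run from the lowest to the highest library. G6pc2, Pck2, Pkm and Eno2 lie to the right in islets, and G6pc, Pck1, Fbp1, Ldha and Gckr in livers.

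In Tfam KO islets, Pfkfb3, Pdk1 and Pklr rose while Pfkfb2, the glucose transporter Slc2a2 and the islet glucose-6-phosphatase G6pc2 fell. Of 41 genes tested, 17 passed (edgeR's quasi-likelihood F-test, Benjamini-Hochberg adjusted p of 0.05 or less over all genes), 10 higher and 7 lower. In the same comparison 20.9% of all 19752 genes tested passed, 11.6% higher and 9.29% lower. The median log2 fold change of the 41 was 0.10 and that of all genes -0.01. Of the 41, the KO and control libraries did not overlap for 8, against 7.49% of all genes. All 17 had the same direction within females and within males. They were called from these same libraries, so this is not an independent check.

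Pfkfb3 ran from 6.01 to 11.3 CPM (median 9.29) in the 8 control libraries and from 16.95 to 25.18 CPM (median 21.9) in the 6 KO libraries. Every KO library lay above every control. The log2 fold change was 1.23 ± 0.12 (SE, adjusted p = 2.41e-06, edgeR). Its sister enzyme Pfkfb2, the main bifunctional enzyme of these islets, went the other way, from 72.5 to 99.3 CPM (median 85.5) in controls to 43.4 to 51.1 CPM (median 46.6) in KO. Again no library overlapped, and the log2 fold change was -0.85 ± 0.08 (adjusted p = 1.4e-06, edgeR). Pdk1, which inhibits pyruvate dehydrogenase, ran from 27.2 to 46.9 CPM (median 36.4) in controls and from 73.3 to 97.8 CPM (median 76.1) in KO, also without overlap (1.18 ± 0.12, adjusted p = 2.36e-06, edgeR). Pdk2 and Pdk3 had values of -0.09 ± 0.08 and -0.02 ± 0.06 and did not pass, and neither did the pyruvate dehydrogenase subunits Pdha1 (0.18 ± 0.07) and Pdhb (-0.03 ± 0.06).

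Slc2a2 fell from 703 to 1099 CPM (median 962) in controls to 315 to 693 CPM (median 467) in KO, a log2 fold change of -1.01 ± 0.13 (adjusted p = 3.76e-05, edgeR). Its highest KO library, a female one, lay just below the lowest control. G6pc2, which hydrolyses glucose 6-phosphate in the beta cell, lay between 915 and 3457 CPM (median 2481) in controls and between 668 and 1024 CPM (median 762) in KO (-1.37 ± 0.19, adjusted p = 6.61e-05, edgeR). The groups overlapped, but within each sex they did not: female controls ran from 915 to 2586 CPM against 668 to 784 CPM in female KO, and male controls from 2615 to 3457 CPM against 1023 and 1024 CPM in male KO. Both are genes of the beta cell, and all 9 beta cell markers tested were lower in KO as well, with Ins1 at -1.26 ± 0.10, Pdx1 at -0.60 ± 0.06, Ucn3 at -0.88 ± 0.08 and Ins2 at -0.93 ± 0.10. In bulk RNA, fewer cells of a type and less RNA per cell cannot be told apart, and the part of the marker difference in these results was not tested. Of the other marker lists, 0 of 6 alpha cell markers passed, 2 of 4 delta and PP cell markers fell, 1 of 13 acinar markers fell, and of 7 fibroblast and stellate markers 2 rose and 1 fell.

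Pklr went from 9.63 to 18.01 CPM (median 16.6) in controls to 26.4 to 40.4 CPM (median 30.8) in KO, without overlap (1.05 ± 0.12, adjusted p = 1.51e-05, edgeR). Pkm, the far more abundant pyruvate kinase, had a value of 0.23 ± 0.09 that did not pass. Pfkp, the platelet form of phosphofructokinase, rose by 0.70 ± 0.11, and Pfkm and Pfkl, at -0.12 ± 0.07 and -0.16 ± 0.07, did not pass. Smaller rises were measured for Eno1 (0.43 ± 0.06), Gapdh (0.40 ± 0.11), Gpi1 (0.35 ± 0.06) and Aldoa (0.19 ± 0.06), and Gapdh has many processed copies in the genome, so its count is uncertain. Fbp2 rose by 2.62 ± 0.60 at levels of at most 1.43 CPM. Tpi1, Pgk1, Ldha and Hk1 had log2 fold changes between -0.05 and 0.10 and did not pass.

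Pck2 lay at 104 to 150 CPM (median 120) in controls and 163 to 199 CPM (median 170) in KO, without overlap (0.49 ± 0.07, adjusted p = 0.000162, edgeR). Pcx, which fills the citric acid cycle from pyruvate, fell by 0.29 ± 0.09 on the log2 scale. Ldhb fell by 0.40 ± 0.10, Eno3 by 0.38 ± 0.11 and Pgam1 by 0.18 ± 0.05. Of the 17 calls, 12 held under every alternative setting tried, and all 17 kept their direction. The 5 that were lost under at least 1 setting were Aldoa, Eno3, Gapdh, Pcx and Pgam1.

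**Figure D2:**
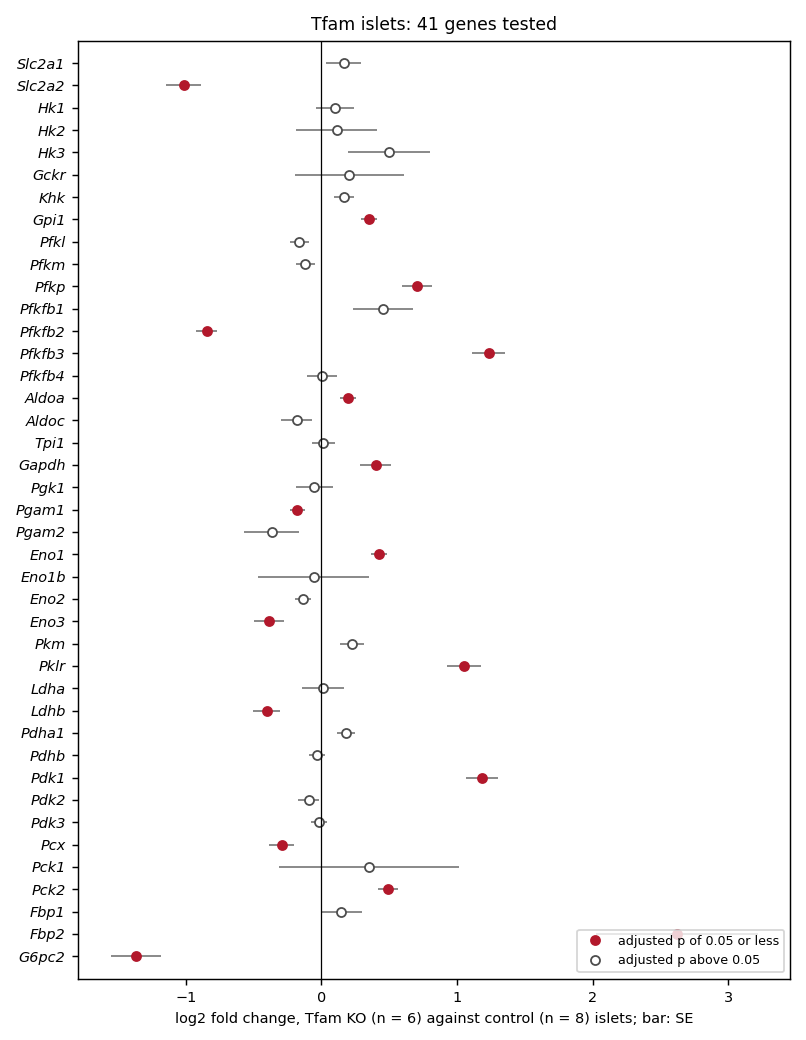
Log2 fold change of the 41 genes tested in Tfam KO islets (6 libraries) against control islets (8), with bars for the SE. Filled points passed at an adjusted p of 0.05 or less; Fbp2, Pfkfb3, Pdk1 and Pklr lie farthest to the right and G6pc2, Slc2a2 and Pfkfb2 farthest to the left.

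The neighbouring pathway genes fixed beside the 42 were read in the same fit. Of 13 further glycolysis genes tested, 2 rose and 3 fell. Of 17 genes of pyruvate use 2 rose and 2 fell, with Gpt2 at 1.51 ± 0.24 and Me1 at 0.57 ± 0.07 among those higher. Of 10 shuttle genes 2 rose, among them Got1 by 1.12 ± 0.07. Of 17 glucose-responsive and gluconeogenic regulators 6 rose and 2 fell, with Txnip at 2.08 ± 0.18 and Arrdc4 at 1.64 ± 0.10. Of 15 hypoxia-induced genes outside glycolysis 3 rose and 3 fell. Of 11 genes of hexose and glucose 6-phosphate transport 2 rose and 1 fell, of 8 of the pentose phosphate pathway 3 rose and 0 fell, and of 15 of glycogen metabolism 3 rose and 0 fell. No member of the 42 passed the test of whether the KO difference depended on sex (edgeR). In that test 3 of the 42 had an unadjusted p under 0.05, Ldha, Pfkfb2 and Hk1. Chance alone gives about 1 in 20 genes at that threshold, and the share of all genes there was not compared. After adjustment 0% of all 19752 genes passed, with 34 passing in DESeq2's Wald test, none of them among the 42.

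In islets labelled Clec16a KO, Slc2a2 and Khk were lower and Pck2 higher than in controls on both diets. On RFD these were the 3 of 39 genes tested that passed (1 higher, 2 lower), where 7.52% of all 17254 genes passed, 3.99% higher and 3.54% lower. On HFD 8 of 39 passed, 3 higher and 5 lower, where 9.57% of all genes passed, 5.62% higher and 3.95% lower. The median log2 fold change of the 39 was -0.04 on RFD and -0.08 on HFD, and that of all genes was 0.00 on both.

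Slc2a2 on RFD read 564, 698, 802 and 928 CPM in the controls and 381, 258, 232 and 210 CPM in KO. Every KO library lay below every control, and the log2 fold change was -1.47 ± 0.34 (adjusted p = 0.0137, edgeR). On HFD the 6 controls ran from 591 to 785 CPM (median 723) and the 5 KO libraries read 170, 223, 189, 692 and 186 CPM. The fourth of these, replicate 4, lay within the control range, and the groups overlapped through it alone. The log2 fold change was -1.26 ± 0.30 (adjusted p = 0.0108, edgeR) with it and -1.87 ± 0.17 (adjusted p = 1.88e-07, edgeR) without it.

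Khk on RFD read 33.0, 33.8, 35.9 and 34.0 CPM in the controls and 21.4, 18.3, 19.1 and 23.6 CPM in KO, without overlap (-0.73 ± 0.14, adjusted p = 0.00534, edgeR). On HFD it ran from 26.3 to 36.2 CPM (median 31.1) in controls and read 17.5, 20.4, 14.3, 24.9 and 16.2 CPM in KO (-0.75 ± 0.12, adjusted p = 0.000961, edgeR). All KO libraries, replicate 4 included, lay below the lowest control on that diet, and without replicate 4 the value was -0.89 ± 0.11.

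Pck2 on RFD read 126, 129, 122 and 139 CPM in the controls and 185, 208, 187 and 193 CPM in KO, again without overlap (0.58 ± 0.14, adjusted p = 0.0134, edgeR). On HFD the controls ran from 117 to 129 CPM (median 123) and the KO libraries read 242, 230, 214, 126 and 226 CPM. Replicate 4 lay among the controls and the other 4 far above them, with a log2 fold change of 0.75 ± 0.12 (adjusted p = 0.000656, edgeR), or 0.89 ± 0.07 without replicate 4. The window printed above with TGATGNAA is that of this gene, and any part of that match in the difference was not tested. Of the tested genes, 7 of 39 did not overlap on RFD against 15.1% of all genes, and 2 on HFD against 2.6%.

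The remaining 5 calls were made on HFD. Pfkfb3 lay at 7.74 to 11.3 CPM (median 10.2) in controls and read 25.4, 46.2, 20.9, 7.54 and 11.1 CPM in KO. Replicates 1 to 3 lay above all controls, replicate 5 within their range and replicate 4 just below it (1.15 ± 0.30, adjusted p = 0.0209, edgeR). Its call was lost without KO replicate 1, and without KO replicate 2 the log2 fold change was 0.70 (adjusted p = 0.106, edgeR). Pdk1 lay at 24.1 to 33.9 CPM (median 29.2) in controls and read 46.0, 61.7, 49.7, 37.4 and 27.5 CPM in KO, of which the last lay within the control range (0.60 ± 0.14, adjusted p = 0.0103, edgeR). Pcx lay at 170 to 197 CPM (median 184) in controls and read 96.7, 93.7, 81.3, 168 and 142 CPM in KO, all below the lowest control (-0.66 ± 0.14, adjusted p = 0.00737, edgeR). Aldoc, the brain-type aldolase, fell by 0.80 ± 0.23 and Pfkl by 0.30 ± 0.09 on the log2 scale, calls that were lost in 8 and 12 of 19 alternatives. Without replicate 4 all 5 passed, at 1.38 for Pfkfb3, 0.65 for Pdk1, -0.83 for Pcx, -1.10 for Aldoc and -0.35 for Pfkl. On RFD the same 5 genes had log2 fold changes of -0.20 for Pfkfb3, -0.06 for Pdk1, -0.50 for Pcx, -0.60 for Aldoc and -0.28 for Pfkl, and none passed.

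Whether the KO difference depended on diet was tested directly, and no gene of the 42 passed (0% of all genes did in edgeR, and 20 in DESeq2's Wald test, none of them among the 42). At an unadjusted p under 0.05 there were 3, Pfkfb3 with a difference of 1.35 ± 0.47, Pdk1 with 0.65 ± 0.21 and Pklr with 0.51 ± 0.21, each with an adjusted p of 0.9999 (edgeR). HFD against RFD gave no call among the 42 in controls, where 0.0406% of all genes passed (0.0058% higher and 0.0348% lower), and none in KO, where 0.0116% did. At an unadjusted p under 0.05 there were 2 genes in controls, Fbp2 and Hk1, and 5 in KO. For each of these counts at an unadjusted p, chance alone gives about 1 in 20 genes. The share of all genes at that threshold was not compared. The diets did not overlap for 0 of 39 genes in controls, against 1.49% of all genes, and for 1 in KO, Hk1, against 1.29%. In KO, DESeq2's Wald test called Pfkfb3, and so did edgeR once replicate 4 was left out (1.55 ± 0.29, adjusted p = 0.0366). G6pc2, lower in Tfam KO islets, had values of 0.34 ± 0.26 on RFD and -0.04 ± 0.22 on HFD and did not pass.

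Without KO HFD replicate 4, the HFD comparison called 14 of the 42 genes, where 20% of all genes passed. The 6 added were Hk1 and Gpi1, higher, and Eno2, Eno3, Ldhb and Pfkfb2, lower, of which Pfkfb2 moved most (-0.92 ± 0.15). The endothelial marker score of that library was 4.54 log2 units, within the control HFD range of 4.36 to 4.57, while the other 4 KO HFD libraries scored 4.91 to 5.22. In each diet 6 of 8 endothelial markers were higher in KO, among them Kdr by 0.72 ± 0.13 on RFD and by 0.55 ± 0.11 on HFD. Fibroblast and stellate markers were higher for 2 of 7 on RFD and 5 of 7 on HFD. Of the beta cell markers 1 of 9 passed on each diet, Ucn3, lower by 0.84 ± 0.16 and 1.05 ± 0.14. The median log2 fold change of the 9 was -0.12 on RFD and -0.45 on HFD. Their score was 10.77 to 10.94 log2 units in KO against 10.99 to 11.19 in controls on RFD. On HFD it was 10.57 to 10.95 in KO, replicate 4 included, against 11.02 to 11.48 in controls. The part of these marker differences in the results for the 42 genes was not tested. Within each of the sequencing lanes 7 and 8, with 1 to 3 libraries a group, every call on either diet kept its direction. The calls came from these same libraries, so the split by lane is no independent check.

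**Figure D3:**
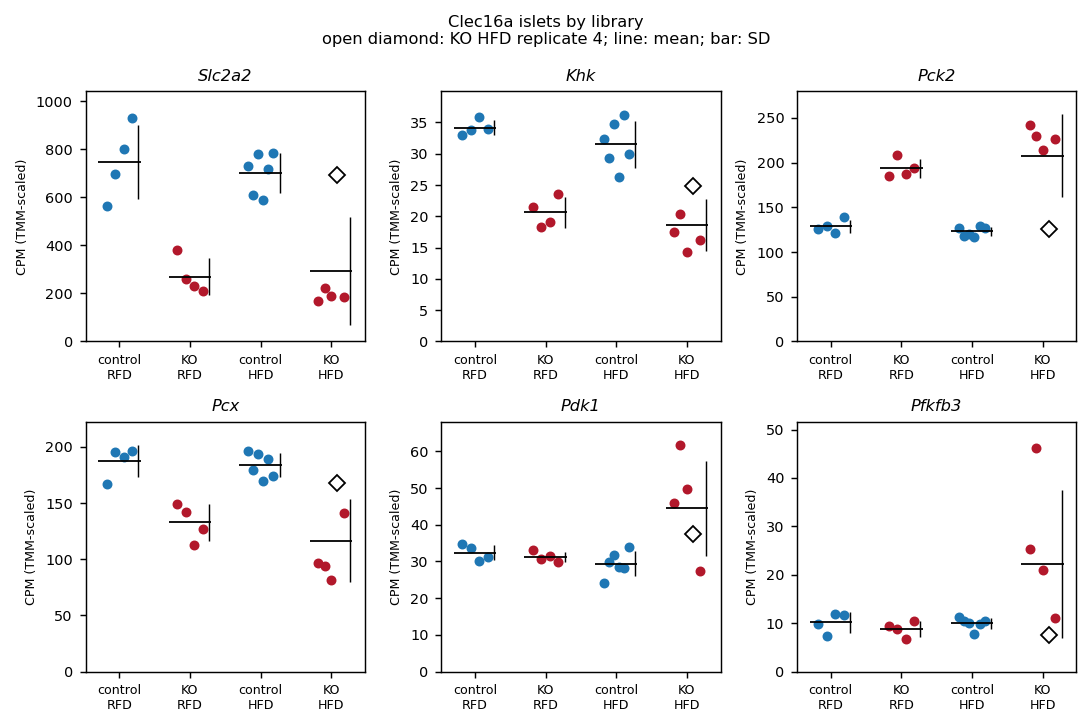
CPM of Slc2a2, Khk, Pck2, Pcx, Pdk1 and Pfkfb3 in each Clec16a islet library by genotype and diet, with lines for the mean and bars for the SD (n = 4, 4, 6 and 5 from left to right). The open diamond is KO HFD replicate 4, at control levels for Slc2a2 (692 CPM) and Pck2 (126 CPM).

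In the lists beside the 42, Gpd2, the mitochondrial glycerol phosphate dehydrogenase that passes glycolytic electrons to the respiratory chain, was lower in KO on both diets, by 0.96 ± 0.26 on RFD and 0.85 ± 0.22 on HFD. The malic enzyme Me3 was higher by 1.59 ± 0.26 and 1.11 ± 0.21, and the alanine transaminase Gpt2 by 1.14 ± 0.27 and 1.17 ± 0.23. Mpc1, a subunit of the carrier that brings pyruvate into mitochondria, was lower on HFD (-0.52 ± 0.10). Mlxipl, the glucose-sensing factor ChREBP, was lower by 1.10 ± 0.22 on RFD and 0.95 ± 0.19 on HFD. Txnip and Arrdc4, which are known targets of that factor and its relative MondoA, were higher on HFD by 2.03 ± 0.34 and 1.67 ± 0.23. On RFD they had 0.52 ± 0.39 and 0.54 ± 0.27 and did not pass. Without KO HFD replicate 4 the HFD values were -1.27 for Gpd2, 1.25 for Me3, 1.37 for Gpt2, -0.55 for Mpc1, -1.09 for Mlxipl, 2.28 for Txnip and 1.87 for Arrdc4, and all passed. Of 17 genes of pyruvate use, 2 were higher and 0 lower on RFD, and 2 higher and 2 lower on HFD. Of 10 shuttle genes, 1 was higher and 1 lower on RFD, and 0 were higher and 1 lower on HFD.

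In Mfn DKO livers, Eno1b rose from near 0 and Eno1, Pfkm, Pdk1 and Pfkfb3 fell. These were the 5 of 41 genes tested that passed, where 9.87% of all 17024 genes did, 5.23% higher and 4.64% lower, and the median log2 fold change was 0.18 for the 41 and 0.02 for all genes. Eno1b is an enolase gene whose coding sequence, like that of Eno1, is 1305 bases long, with 8 differences between them (99.4% identical). By comparison Eno1 and Eno3 are 77.8% identical, and Eno1 and Eno2 76.2%. Eno1 lies on chromosome 4 at 150236721 to 150248879, near the targeted gene Mfn2, at 147873599 to 147904704 of the same chromosome. Eno1b lies on chromosome 18. The part of this nearness to Mfn2 in the Eno1 and Eno1b results was not tested.

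Eno1b ran from 0.106 to 0.795 CPM (median 0.282) in the 6 control livers and read 57.9, 66.0, 63.1 and 70.4 CPM in Mfn DKO. Tfam KO livers read 0.508, 0.441 and 0.447 CPM, within the control range, so only the Mfn DKO libraries are high (7.55 ± 0.34 against control, adjusted p = 1.27e-07, and -7.10 ± 0.44 for Tfam KO against Mfn DKO, adjusted p = 4.65e-06, edgeR). Eno1 ran from 379 to 437 CPM (median 425) in controls and read 236, 254, 241 and 268 CPM in Mfn DKO, without overlap (-0.73 ± 0.12, adjusted p = 0.00322, edgeR). In Tfam KO it read 451, 562 and 409 CPM.

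Since reads of 2 genes this alike can be assigned to either, each gene alone is uncertain, and their counts were also added. The sum ran from 379 to 437 CPM (median 425) in controls and read 294, 320, 304 and 338 CPM in Mfn DKO, still without overlap (-0.40 ± 0.12, adjusted p = 0.0486, edgeR). Eno1b made up 20.5% ± 0.53 (SD, n = 4) of the sum in Mfn DKO, 0.0818% ± 0.0552 (SD, n = 6) in controls and 0.100% ± 0.0187 (SD, n = 3) in Tfam KO. For the sum, Tfam KO against Mfn DKO gave 0.60 ± 0.14 (adjusted p = 0.0937, edgeR) and did not pass.

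Pfkm ran from 21.01 to 29.27 CPM (median 25.6) in controls and read 12.8, 16.7, 12.6 and 15.1 CPM in Mfn DKO, without overlap (-0.82 ± 0.12, adjusted p = 0.00221, edgeR). Pdk1 ran from 106 to 156 CPM (median 135) in controls and read 61.6, 43.4, 63.7 and 82.6 CPM in Mfn DKO, also without overlap (-1.07 ± 0.29, adjusted p = 0.0352, edgeR). Pfkfb3 ran from 15.6 to 46.0 CPM (median 29.3) in controls and read 9.40, 9.17, 19.2 and 11.5 CPM in Mfn DKO, where replicate 3 lay within the control range (-1.31 ± 0.32, adjusted p = 0.0242, edgeR). Of the tested genes, 11 of 41 did not overlap between the groups, against 19.2% of all genes. Hepatocyte markers passed for 0 of 7, with scores of 12.27 to 12.44 log2 units against 12.92 to 13.004 in controls, and fibroblast and stellate markers were higher for 2 of 8 and macrophage markers for 1 of 8. The part of these markers in the results was not tested. Eno1b, wherever it was tested, and Pfkm held under every alternative, and all 5 kept their direction. Pfkfb3 lost its call without Mfn DKO replicate 1, 2 or 4 or control replicate 6, and Pdk1 without Mfn DKO replicate 1, 2 or 3 or control replicate 1, 4, 5 or 6.

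Fitted with Mfn DKO and control livers only, without the Tfam KO livers, 16 of the 42 genes passed, where 27% of all genes did. Besides the 5, these were Pck2 (1.39 ± 0.18, adjusted p = 0.000334), Pfkp (1.42 ± 0.38), Pfkfb4 (0.79 ± 0.26), Aldoa (0.73 ± 0.12), Pkm (0.73 ± 0.24), Hk2 (0.73 ± 0.24), Fbp1 (0.52 ± 0.09) and Ldhb (0.51 ± 0.16), all higher, and Khk (-0.90 ± 0.12), Pklr (-0.87 ± 0.18) and Slc2a2 (-0.55 ± 0.13), all lower (edgeR). Pck2 read 10.5, 11.7, 8.41 and 9.52 CPM in Mfn DKO against 2.85 to 5.22 CPM (median 3.60) in controls, with every Mfn DKO library above every control. In the fit over all 3 groups its log2 fold change was 1.40 ± 0.52 (adjusted p = 0.104, edgeR), where the fit also takes its estimate of the spread from the Tfam KO livers. Low-count filter and scaling were set anew in the fit of 2 groups, and which of these changed the count was not tested.

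In Tfam KO livers, Pck2, Ldhb and Aldoa were called higher and Pfkm lower, with or without replicate 2, 1 of the 3 libraries. Pfkp was also called higher and Slc2a2 and Ldha lower, but these calls were lost without that library. It also carried much of the size of the rises. Of 41 genes tested 19 passed, 12 higher and 7 lower, where 29.3% of all 17024 genes did, 18.1% higher and 11.3% lower, and the median log2 fold change was 0.14 for the 41 and 0.03 for all genes. Of the 41, the groups did not overlap for 11, against 20.9% of all genes. The hepatocyte marker scores of replicates 1, 2 and 3 were 11.8, 9.86 and 12.5 log2 units against 12.92 to 13.004 in controls, and 4 of 7 hepatocyte markers were lower. Of 8 fibroblast and stellate markers 2 were higher, as was 1 of 8 macrophage markers. The part of these marker differences in the results was not tested.

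Pck2 read 14.6, 122 and 10.6 CPM in Tfam KO against 2.85 to 5.22 CPM (median 3.60) in controls. All 3 lay above every control, with replicate 2 far above the other two, and the log2 fold change was 3.69 ± 0.56 (adjusted p = 0.0012, edgeR), or 1.73 ± 0.22 (adjusted p = 0.000814, edgeR) without replicate 2. Ldhb, which favours lactate use, read 8.19, 69.1 and 4.96 CPM against 2.26 to 4.17 CPM (median 3.56), again above every control (2.99 ± 0.57 with replicate 2 and 0.93 ± 0.22 without it). Aldoa read 305, 676 and 105 CPM against 77.8 to 114 CPM (median 86.5), with replicate 3 inside the control range (2.01 ± 0.36, and 1.19 ± 0.27 without replicate 2). Slc2a1 read 19.7, 38.1 and 17.1 CPM against 8.61 to 15.1 CPM (median 11.2), all above the controls (1.13 ± 0.24, and 0.69 ± 0.20 without replicate 2).

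The calls of Pfkp, the platelet form of phosphofructokinase, and of Fbp2 rested on replicate 2. Pfkp read 5.58, 72.6 and 5.12 CPM against 2.09 to 4.67 CPM (median 3.58) in controls, with a log2 fold change of 2.99 ± 0.70 (adjusted p = 0.00865, edgeR). Without replicate 2 it no longer passed, with a log2 fold change of 0.62 ± 0.45. Fbp2 read 0.541, 11.8 and 0.134 CPM against at most 1.11 CPM in controls (3.87 ± 1.14 with replicate 2 and 0.28 with an SE of 1.060, which did not pass, without it). Smaller rises passed for Pdk3 (1.16 ± 0.35), Pkm (0.88 ± 0.31), Pgam1 (0.76 ± 0.20), Gpi1 (0.62 ± 0.20), Pfkfb2 (0.52 ± 0.18) and Pfkl (0.45 ± 0.13). Without replicate 2 none of these 6 passed, with log2 fold changes of 0.60 for Pdk3, 0.37 for Pkm, 0.36 for Pgam1, 0.20 for Gpi1, 0.55 for Pfkfb2 and 0.30 for Pfkl.

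Among the genes that were lower, Pfkm read 12.97, 16.65 and 16.63 CPM against 21.01 to 29.27 CPM (median 25.6), with all 3 libraries close together and below every control (-0.71 ± 0.14, adjusted p = 0.00348, edgeR). This was the 1 call of the 19 that held under every alternative. Slc2a2 read 258, 93.4 and 353 CPM against 406 to 498 CPM (median 437), lowest in replicate 2 and below every control in all 3 (-0.92 ± 0.31, adjusted p = 0.0402, edgeR), and without replicate 2 its value was -0.54 and did not pass. Ldha read 487, 514 and 696 CPM against 725 to 1025 CPM (median 800), also without overlap (-0.55 ± 0.19, adjusted p = 0.0445, edgeR). The calls of Slc2a2 and Ldha were each also lost without any 1 of several controls. Pfkfb3 (-1.30 ± 0.36), Aldoc (-1.10 ± 0.35), Pfkfb1 (-0.90 ± 0.28) and Pdk2 (-0.56 ± 0.17) also fell. Without replicate 2 the values were -0.48 for Ldha, -1.16 for Pfkfb3, -0.71 for Aldoc, -0.64 for Pfkfb1 and -0.40 for Pdk2, and none passed. The genes of glucose production Pck1, Fbp1, G6pc and Pcx had values of -0.68 ± 0.39, -0.65 ± 0.43, -0.84 ± 0.38 and -0.61 ± 0.22 and did not pass.

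Without replicate 2, 6 genes passed, where 14.5% of all genes did. They were Pck2, Ldhb, Aldoa and Slc2a1, higher, and Pfkm and Khk, lower. Khk, not among the 19, read 348, 28.3 and 567 CPM against 614 to 968 CPM in controls, so all 3 lay below the controls (-0.71 ± 0.20 without replicate 2). Without replicate 3, 26 passed, where 41.8% of all genes did, and without control replicate 1, 11 passed, where 23.1% of all genes did. Split by Xist level, since the labels give no sex, all 19 kept their direction in 2 Tfam KO against 3 control libraries with high Xist. With low Xist there was 1 Tfam KO library against 3 controls, which also had the same directions but gives no check of spread. The split by Xist uses the libraries that gave the 19 calls, so it is not an independent check. Directly compared, Tfam KO and Mfn DKO livers differed in 2 of 41 genes, Eno1 and Eno1b, where 0.294% of all genes passed. Without Tfam KO replicate 3 that comparison called 17, where 24% of all genes passed. The liver comparisons share their 6 controls.

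**Figure D4:**
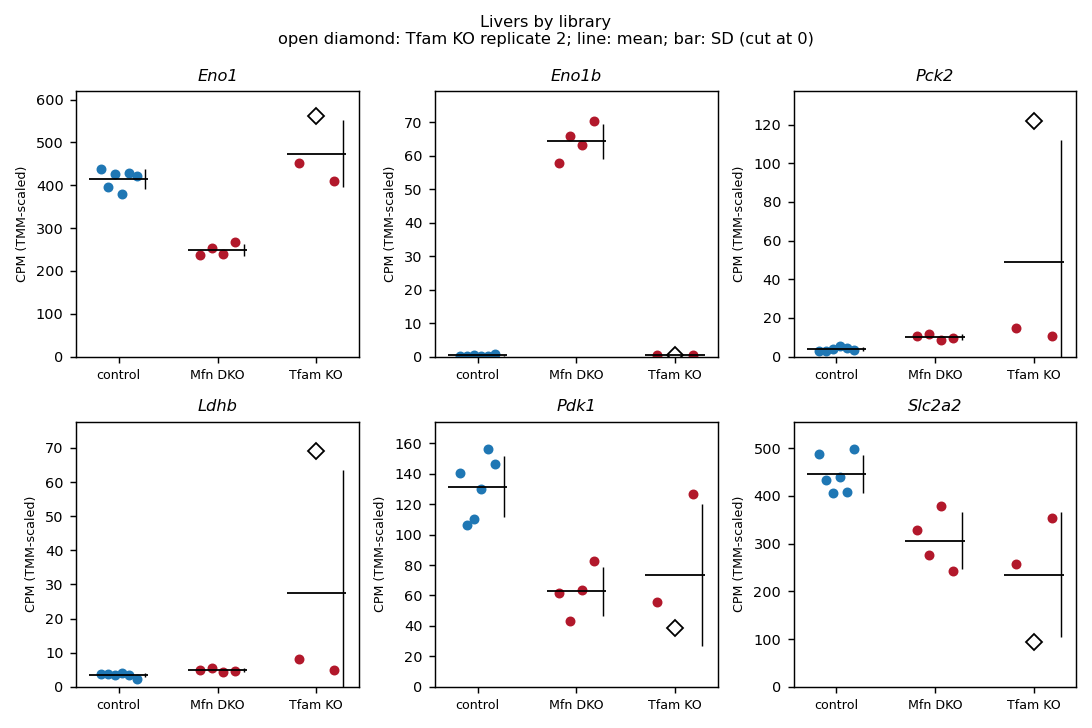
CPM of Eno1, Eno1b, Pck2, Ldhb, Pdk1 and Slc2a2 in each liver library, with lines for the mean and bars for the SD cut at 0 (n = 6 controls, 4 Mfn DKO and 3 Tfam KO). Eno1b is high only in Mfn DKO, and the open diamond, Tfam KO replicate 2, sets the mean of Pck2 and Ldhb.

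Of the lists beside the 42, pyruvate use had 3 of 17 genes higher in Mfn DKO livers, and 6 higher and 2 lower in Tfam KO livers. Pdp1, the phosphatase that turns pyruvate dehydrogenase back on, was higher in both, by 1.32 ± 0.28 and 1.64 ± 0.30. Pdk4, a kinase that turns it off, was higher in Tfam KO by 5.27 ± 0.90, from 2.69 to 11.7 CPM in controls to 21.9 to 661 CPM in KO. Slc16a1, the lactate and pyruvate carrier MCT1, was higher in Tfam KO by 1.77 ± 0.29, and Me2 by 1.11 ± 0.23. Slc37a4, which brings glucose 6-phosphate to the phosphatase, was lower in Mfn DKO by 1.15 ± 0.29 and in Tfam KO by 1.45 ± 0.33. Without Tfam KO replicate 2 all 5 passed in Tfam KO livers, at 2.27 for Pdk4, 1.39 for Pdp1, 1.26 for Slc16a1, 0.69 for Me2 and -1.05 for Slc37a4. For hypoxia-induced genes outside glycolysis, 0 of 15 were higher and 1 lower in Mfn DKO, and 3 were higher and 2 lower in Tfam KO.

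Set side by side, Pck2 was called higher in 4 of the 5 comparisons of knockout with control, with log2 fold changes of 0.49 in Tfam islets, 0.58 and 0.75 in Clec16a islets on RFD and HFD, 1.40 without a call in Mfn DKO livers and 3.69 in Tfam KO livers. Slc2a2 was called lower in 4, at -1.01, -1.47, -1.26 and, in Tfam KO livers, -0.92, and had -0.54 without a call in Mfn DKO livers. Pfkfb3 was called higher in Tfam islets and in Clec16a islets on HFD, at 1.23 and 1.15, and lower in both liver comparisons, at -1.31 and -1.30. Pdk1 was higher in those same 2 islet comparisons, at 1.18 and 0.60, lower in Mfn DKO livers, at -1.07, and had -0.84 without a call in Tfam KO livers. The difference between tissues was not tested, since each experiment was fitted alone. How many of all genes were called in 4 of the 5 comparisons was not counted, so these counts have no share beside them.

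**Figure D5:**
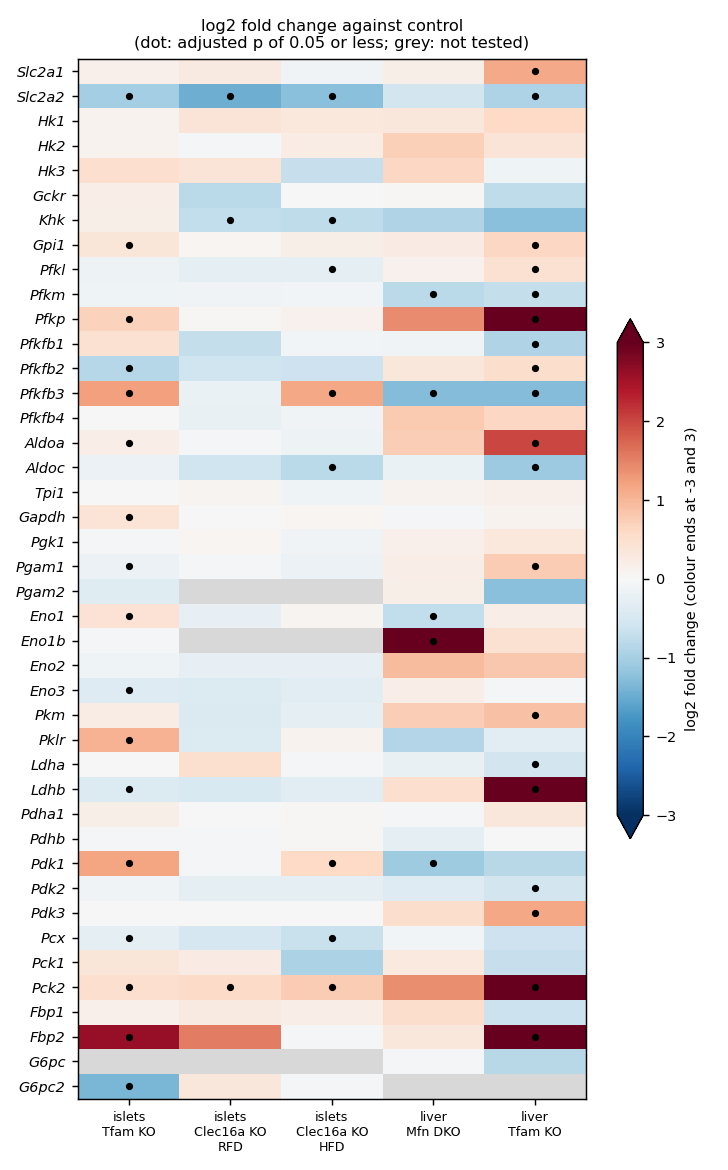
Log2 fold change of each of the 42 genes (rows) in 5 comparisons of knockout with control (columns), red for higher and blue for lower, with the same colour scale in both directions. Dots mark an adjusted p of 0.05 or less and grey marks genes not tested; the rows of Pck2 and Slc2a2 have 1 colour throughout, and that of Pfkfb3 is red, or pale on RFD, in islets and blue in livers.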

How the data were processed

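Total RNA from mouse islets and livers was sequenced as paired ends, per the labels' protocols. The deposited files give each gene's count, TPM and CPM in each of 46 libraries. The counts are whole numbers, the authors' CPM equals count over library total, and the deposited TPM values are scaled by gene length. The submitters' processing notes name GRCm38, STAR 2.6.1b, RSEM 1.3.1, featureCounts and DESeq2 without saying which made the tables, and do not state strand.

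Counts were tested per experiment with edgeR 4.0.16 (R 4.3.3): TMM scaling, filterByExpr, the quasi-likelihood F-test and Benjamini-Hochberg adjustment over all genes, with a call at 0.05 or less. Each fit took all groups of its experiment, with sex as a term for Tfam islets. SE is the log2 fold change over the square root of F. Printed CPM use TMM-scaled totals. Aldoa has 2 identifiers, of which the one holding nearly all counts was used. The labels call the replicates biological without naming animals or cultures, so p-values measure the spread between these samples. Scripts were tested on simulated data, in which 64 to 67 genes were changed by each fold, of 16767 to 19336 genes. That is a smaller share than was called in the real fits, and the adjustment depends on it. The simulated shares therefore need not hold for the real fits. The share of 2-fold changes called was 71.6% for Tfam islets, 75.4% for Clec16a islets on RFD and 35.8% for Mfn DKO livers. Of 1.5-fold changes 54.7%, 28.8% and 2.99% were called, so a gene that did not pass is not shown to be unchanged. Genes simulated without a change made up 7.38%, 6.72% and 3.90% of the calls.

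The 42 genes and the 18 other lists were chosen with earlier results of these data known. All 42 could be named, those called with values for up to 25 per comparison, and from each other list at most 4 called genes with the smallest adjusted p in a comparison. Alternatives were DESeq2 1.42.0 size factors and Wald test, other filters, covariates, the replicate block, fits on the compared groups alone, and each library left out. A sum of Eno1 and Eno1b was added after seeing the data.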

Additional observations from a re-analysis of the deposited data

Results flagged for a closer look

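In groups of 4 to 10 libraries, 8 of 110 combinations of a gene and a group had a library set apart from the rest of its group by Dixon's 95% limit, and chance alone gives about 1 in 20. In Clec16a KO islets on HFD, replicate 4 had Slc2a2 at 692 CPM, where the other libraries of the group lay between 170 and 223 CPM. The same library had Pck2 at 126 CPM, where the others lay between 214 and 242 CPM. Among Clec16a control islets, HFD replicate 3 had Aldoc at 28.4 CPM against 14.01 to 18.9 CPM, and RFD replicate 1 had Pcx at 167 CPM against 191 to 196 CPM. In Tfam islets, female control replicate 5 had Gpi1 at 122 CPM against 136 to 140 CPM, and female KO replicate 1 had Fbp2 at 1.29 CPM against 0.148 to 0.337 CPM. In control livers, replicate 6 had Eno1b at 0.795 CPM against 0.106 to 0.345 CPM, and replicate 4 had Fbp2 at 1.11 CPM against 0 to 0.251 CPM. Liver Tfam KO, with 3 libraries, is too small for that rule.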

How the results depend on the processing

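No called gene changed direction under any setting tried. Under every setting that tested it, a call held for 12 of 17 genes in Tfam islets, 3 of 3 on RFD and 5 of 8 on HFD in Clec16a islets, 2 of 5 in Mfn DKO livers and 1 of 19 in Tfam KO livers. The cause of the changes in counts below was not tested. Genes called, of the 42, moved with the setting as follows. Shares in brackets are of all genes under that setting, then under the reported test. DESeq2's Wald test called 6 on RFD (10.7% against 7.52%), 1 for diet in KO (0.243% against 0.0116%), 8 in Mfn DKO livers (16.9% against 9.87%) and 6 between Tfam KO and Mfn DKO livers (6.39% against 0.294%). An acinar score as a covariate gave 7 on RFD (10.9%). An Xist level as a covariate gave 8 in Mfn DKO livers (12.9%). Only the compared groups gave 5 on HFD (7.02% against 9.57%), 16 in Mfn DKO livers (27%), 11 in Tfam KO livers (19.6% against 29.3%) and 1 between the knockouts (0.0429%), and a minimum of 10 counts in every library gave 1 there (0.202%). With each library left out in turn, calls ran from 13 to 19 in Tfam islets (14.9 to 25.3% of all genes), 3 to 4 on RFD (2.98 to 7.07%) and 5 to 14 on HFD (4.67 to 20%). They ran from 0 to 1 for diet in KO (0 to 0.18%) and 3 to 5 in Mfn DKO livers (4.05 to 8.53%). In Tfam KO livers they ran from 6 to 26 (14.5 to 41.8%), and between the knockouts from 1 to 17 (0.142 to 24%). The share of all genes thus moved over these fits as well.

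With the replicate number as a block, 5 genes were called on HFD (5.65% of all genes), 2 in Mfn DKO livers (0.993%), 1 in Tfam KO livers (2.32%) and 1 between the knockouts (0.0352%). Deviations of same-numbered libraries from their group means had correlations of -0.289 to 0.442 in Tfam islets, -0.348 to 0.303 in Clec16a islets and -0.467 to 0.524 in livers. These were not set against libraries of different numbers, so they cannot decide whether the numbers pair samples.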

Other observations

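Several genes of the 42 lay at different levels in the islets of the Tfam and Clec16a experiments, whatever the genotype, and since each experiment is its own set of libraries, no test was made. Pgk1 lay at 41.8 to 87.8 CPM in Tfam islets and 10.7 to 26.2 CPM in Clec16a islets. Pgam1 lay at 37.0 to 52.2 CPM and 9.43 to 16.2 CPM. Eno1 lay at 87.5 to 145 CPM in Tfam islets and 30.0 to 63.4 CPM in Clec16a islets. Eno3 went the other way, at 11.5 to 25.7 CPM and 26.1 to 56.5 CPM. Pgam2, the muscle phosphoglycerate mutase, lay at 0.484 to 1.18 CPM in Tfam islets and had no count in 18 of 19 Clec16a libraries. Control islets of both experiments stand together in the comparison of tissues, and their ranges there include these differences.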
